A study of Homo sapiens with 6 samples.

Results

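The laminin-binding integrins and the hemidesmosome were described through 6 genes, ITGA3, ITGA6, ITGB4, CD151, PLEC and DST, out of 58735 gene IDs in the count table. The 6 genes were picked as a functional family after the comparison of SETD8 with vector had been seen in these libraries, and were thus chosen by their log2 fold changes and adjusted p in that contrast as well as by function. Their differences between the groups are therefore given as a description, with no test attached. All 6 passed the filter on low counts. The libraries came from HCT116, an established human colorectal carcinoma line. One group of 3 carried an empty vector and is labelled WT, and the other group of 3 overexpressed SETD8, a lysine methyltransferase encoded by KMT5A. By its title the series is about SETD8 acting on the coactivator YAP, and the comparison asks how the transcripts of the populations differ. The treatment text describes lentiviral transduction and puromycin-selected stable clones in both groups, while the design text speaks of transfection, and the number of clones is not given. The labels do not say whether replicates are separate cultures. The p-values therefore measure the spread between these samples only, which may be technical.

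Integrins are heterodimers of an alpha and a beta chain that tie the extracellular matrix to the cytoskeleton. The alpha3 chain pairs with beta1, and the alpha6 chain pairs with beta1 or beta4. All of these dimers bind laminins of the basement membrane, on which epithelial cells rest. In stratified epithelium, alpha6beta4 nucleates the hemidesmosome, where the plakins plectin (PLEC) and dystonin (DST) link it to keratin filaments and the tetraspanin CD151 sits beside the integrin. Simple epithelia such as that of the colon carry a reduced form that holds alpha6beta4 and plectin.

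Each library held 17056672 to 20471843 counted reads, and a gene with 3 counts stood at 0.15 to 0.17 CPM, the count scaled to library size after TMM normalisation. Values of single libraries are given in the order of replicates 1, 2 and 3. KMT5A had 46.0, 47.3 and 53.9 CPM with vector and 65.4, 66.2 and 75.5 CPM with SETD8 (0.49 ± 0.10 SE on the log2 scale, edgeR adjusted p = 0.0156). The KMT5A call ended when vector replicate 2 (edgeR adjusted p = 0.0965) or SETD8 replicate 1, 2 or 3 was left out (0.0661, 0.0579 and 0.0949). YAP1 did not pass the test (0.08 ± 0.09 SE on the log2 scale, edgeR adjusted p = 0.600). Vector replicate 1 stood apart from its group: on the first principal component (46.4% of the variance) it was at -0.94, vector replicates 2 and 3 at 25.7 and 39.3, and the SETD8 libraries at -23.8 to -16.5. Of 10 colon epithelial markers, 7 were expressed above the filter, while CDX1 had no counts and VIL1 and LGALS4 were at or near 0. The 7 summed to 10774 to 13288 CPM with vector and 11264 to 12720 CPM with SETD8. The keratin genes KRT8, KRT19 and KRT18 made up most of the sum, with vector means of 6697, 3124 and 2212 CPM. KRT20, also among the 7, had a vector mean of 1.74 CPM. One of the 7, the E-cadherin gene CDH1, was lower with SETD8 (-0.54 on the log2 scale, edgeR adjusted p = 0.0218), and its part in the results was not tested. Among 6 basal keratinocyte markers, TP63, KRT14 and KRT17 were not above the filter, and KRT15 made up most of a sum of 131 to 151 CPM with vector and 135 to 171 CPM with SETD8. The 8 fibroblast markers summed to 4.85 to 7.32 CPM with vector and 3.50 to 4.83 CPM with SETD8, with COL1A2, DCN and PDGFRA at 0. The 6 endothelial markers summed to 2.65 CPM at most and the 7 immune markers to 1.05 CPM at most, with KDR, PTPRC and CD3E at 0. Of all 14370 genes tested, 682 were lower and 443 higher with SETD8 (edgeR, adjusted p under 0.05). With library totals in place of TMM those counts were 505 and 792.

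In all, 5 members were lower in every SETD8 library than in any vector library, and CD151 was higher. The median log2 fold change over the 6 was -0.68, against 0.00047 over all genes tested. In the fit over all genes, 4 members (ITGA3, ITGB4, ITGA6 and PLEC) were among the genes called lower, a class that held 4.75% of genes tested, and 0 were among the genes called higher, a class of 3.08%. Called genes of either direction made up 7.83%. Groups that did not overlap with SETD8 lower were seen in 15.9% of genes tested and with SETD8 higher in 14.4%, or 30.3% in either direction. As the members were chosen with this contrast known, nothing is read from these shares. In bulk libraries, fewer cells of a type and less RNA per cell cannot be told apart.

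**Figure D1:**
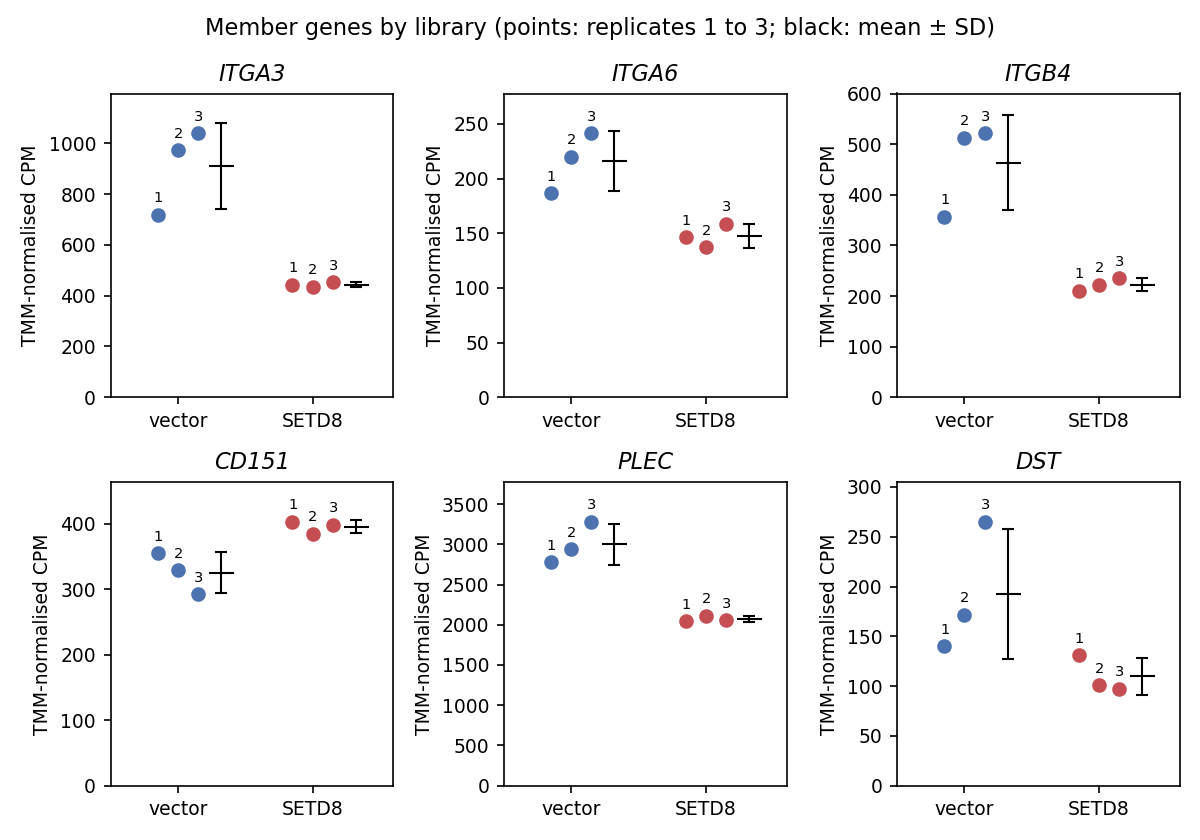
TMM-normalised CPM (vertical axes, from 0) of each member gene in the 3 vector libraries (blue) and 3 SETD8 libraries (red). Numbers give the replicate and the black bar the mean ± SD. The SETD8 points of ITGA3, ITGA6, ITGB4, PLEC and DST lie below all vector points, those of CD151 lie above, and vector replicate 1 is the vector library nearest to the SETD8 libraries for each gene.

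ITGA3 encodes the alpha3 chain, which pairs with beta1 and binds laminin-332 and laminin-511. The gene lies on chromosome 17 from 50055968 to 50090481 of GRCh38 on the plus strand (ENSG00000005884). Vector libraries had 720, 973 and 1040.5 CPM, against 444, 435 and 452 CPM in the SETD8 libraries. The SETD8 libraries lay within 1.04-fold of each other and the vector libraries within 1.45-fold, and even the lowest vector library was 1.59 times the highest SETD8 library. On average this was 911 ± 169 CPM with vector and 444 ± 8.57 CPM with SETD8 (SD over 3 libraries each, as in what follows), a log2 fold change of -1.04 (SE 0.12), which is 2.05-fold lower. Of all genes tested, 1.61% had a lower log2 fold change.

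ITGB4, which encodes the beta4 chain with its long cytoplasmic tail for plectin, moved almost as ITGA3 did. It lies on the plus strand of chromosome 17 as well, from 75721328 to 75757818 (ENSG00000132470). It had 356, 513 and 522 CPM with vector and 210, 222 and 235 CPM with SETD8. Vector replicate 1 was again the lowest of its group and still 1.52 times the highest SETD8 library. The means were 464 ± 93.2 and 222 ± 12.4 CPM, a log2 fold change of -1.06 (SE 0.13). GALK1, which lies on the opposite strand and overlaps the ITGB4 locus without sharing exon bases, had a log2 fold change of -0.07 (edgeR adjusted p = 0.741).

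ITGA6 encodes the alpha6 chain, the partner of beta4 in hemidesmosomes and of beta1 elsewhere, and its difference was smaller than those of ITGA3 and ITGB4. The gene lies on chromosome 2 from 172427354 to 172506282 on the plus strand (ENSG00000091409). Vector libraries had 187, 220 and 242 CPM, against 146, 137 and 159 CPM in the SETD8 libraries. The groups did not overlap, with vector replicate 1 at 1.18 times the highest SETD8 library. The means were 216 ± 27.6 and 147 ± 10.8 CPM, a log2 fold change of -0.55 (SE 0.10). The antisense genes ENSG00000226963, ITGA6-AS1 and PDK1-AS1 share 174, 125 and 52 exon bases with ITGA6. They had at most 2, 3 and 11 counts in any library, beside 2648 to 4411 counts of ITGA6. Whether counting used strand is not stated, so reads of the shared stretches cannot be told apart. Their part in the ITGA6 value was not tested.

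PLEC and DST encode plakins, very large proteins with forms that bridge integrin tails and intermediate filaments. PLEC (ENSG00000178209, chromosome 8) was the most abundant member in CPM, with 2774, 2937 and 3282 CPM with vector and 2046, 2109 and 2055 CPM with SETD8. The groups did not overlap, and the SETD8 libraries lay within 1.03-fold of each other. The means were 2998 ± 259 and 2070.2 ± 33.9 CPM, a log2 fold change of -0.53 (SE 0.10). DST lies on the minus strand of chromosome 6 from 56457987 to 56954628 (ENSG00000151914). It had 140, 172 and 265 CPM with vector and 131, 101 and 97.3 CPM with SETD8. DST was the most variable member: vector replicate 3 was 1.90 times vector replicate 1, and the lowest vector library exceeded the highest SETD8 library only 1.07-fold. The means were 192 ± 65.2 and 110 ± 18.7 CPM, a log2 fold change of -0.81 (SE 0.22). Without vector replicate 3 the DST value was -0.50, and without vector replicate 1 it was -0.99. The DST count is summed over 35 annotated transcripts, so whether the hemidesmosomal form differed is not known.

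The exons of PLEC and DST cover 16991 and 42341 bases when merged, against a median of 4745 over genes tested, and 1.84% of genes tested reach the length of PLEC. With each library's trend on exon length removed, the log2 fold change of PLEC was -0.32 and that of DST -0.43, while ITGA3, ITGB4 and ITGA6 stood at -0.90, -0.99 and -0.49. The part of transcript length in the PLEC and DST values was not tested further.

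CD151 encodes a tetraspanin that binds alpha3beta1, alpha6beta1 and alpha6beta4 and is needed for firm adhesion to laminin. It was the one member with higher values in SETD8 libraries. The gene lies on chromosome 11 from 832843 to 839831 on the plus strand (ENSG00000177697). Vector libraries had 355, 329 and 292 CPM, against 403, 384 and 398 CPM in the SETD8 libraries. The groups did not overlap, and vector replicate 1 reached 0.88 of the highest SETD8 library. The means were 325 ± 31.6 and 395 ± 9.60 CPM, a log2 fold change of 0.28 (SE 0.09), or 1.21-fold higher. POLR2L, an RNA polymerase subunit gene on the opposite strand, shares 257 exon bases with CD151 and was also higher in SETD8 libraries, at 79.9 ± 28.7 and 139 ± 14.1 CPM (0.80 ± 0.22 SE on the log2 scale, edgeR adjusted p = 0.0550). The sources used here do not say whether counting used strand, so reads of the shared stretch cannot be told apart, and their part in the CD151 value was not tested.

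The 2 members found in the RefSeq promoter table (GRCh38.p14) were ITGA6, with 2 starts, and DST, with 3, and ITGA3, ITGB4, CD151 and PLEC had no entry there. The 250 bases before the most upstream start of each are shown, as the windows of the other starts hold annotated exon bases. Capitals mark matches, on either strand, to GGAATG (the core recognised by TEAD factors, the DNA-binding partners of YAP), GGGCGG (GC box), TGANTCA (AP-1), CAGGTG (E-box) or TATAAA. The ITGA6 window is chr2:172427086-172427335 on the plus strand and the DST window chr6:56954831-56955080 on the minus strand.
ITGA6: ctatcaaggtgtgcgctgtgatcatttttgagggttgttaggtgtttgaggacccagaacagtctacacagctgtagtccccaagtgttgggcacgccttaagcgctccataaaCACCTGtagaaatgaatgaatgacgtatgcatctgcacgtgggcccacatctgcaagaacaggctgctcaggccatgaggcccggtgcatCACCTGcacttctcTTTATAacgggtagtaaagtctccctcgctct
DST: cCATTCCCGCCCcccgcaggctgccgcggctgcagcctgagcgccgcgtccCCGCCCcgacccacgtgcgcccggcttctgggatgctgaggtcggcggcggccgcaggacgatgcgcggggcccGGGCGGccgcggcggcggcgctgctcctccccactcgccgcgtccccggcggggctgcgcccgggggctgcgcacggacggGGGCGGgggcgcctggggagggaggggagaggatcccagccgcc

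The DST window is 82.8% G and C, above 98.7% of all 35116 promoters in the table, and the ITGA6 window 50.8%, above 33.7% of them. The DST window holds 1 match to GGAATG, which overlaps the first of its 4 GC boxes, and no match to the other 3 motifs. The ITGA6 window holds 2 matches to CAGGTG and 1 to TATAAA, and none of the other 3. At the other starts the difference in composition was reversed. The other ITGA6 window is 71.6% G and C, with 3 GC boxes and no match to the other motifs. The other DST windows are 44.0% and 37.6% G and C and hold no match to any of the motifs. The DST start shown lies 202 bases from the nearest GENCODE start, and 1 of 35 DST transcripts starts within 300 bases of it. At least 1 match to GGAATG was found in 11.9% of promoters of the same length, to GGGCGG in 42.6%, to TGANTCA in 6.57%, to CAGGTG in 17.5% and to TATAAA in 10.7%. A match describes the letters only. The counts are summed over all starts of a gene, so which DST or ITGA6 start the reads came from is not known.

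Per kilobase of merged exons, PLEC had the highest mean level and DST the lowest in both groups. In vector libraries PLEC led at 176 ± 15.3 CPM per kilobase, followed by ITGA3 at 93.0 ± 17.3, CD151 at 82.6 ± 8.02, ITGB4 at 68.6 ± 13.8, ITGA6 at 33.1 ± 4.23 and DST at 4.54 ± 1.54 (SD, n = 3). The ranges of ITGA3, CD151 and ITGB4 overlapped between neighbours, so their order in vector libraries is not resolved. In SETD8 libraries the order was PLEC at 122 ± 1.99, CD151 at 100.3 ± 2.44, ITGA3 at 45.3 ± 0.87, ITGB4 at 32.9 ± 1.83, ITGA6 at 22.5 ± 1.65 and DST at 2.59 ± 0.44 CPM per kilobase, and no neighbours overlapped. When the longest annotated transcript was used as the length, CD151 stood first in SETD8 libraries at 213 ± 5.17 CPM per kilobase and PLEC second at 136 ± 2.22. The first rank therefore depends on the length taken, while ITGA3, ITGB4, ITGA6 and DST kept that order under either length in each group.

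Within each library, ITGB4 and ITGA3 were less abundant relative to ITGA6 when SETD8 was overexpressed. The ratio of ITGB4 to ITGA6, per kilobase, was 1.84, 2.25 and 2.09 with vector and 1.39, 1.57 and 1.43 with SETD8. The ratio of ITGA3 to ITGA6 was 2.57, 2.95 and 2.87 with vector and 2.02, 2.12 and 1.90 with SETD8. Neither ratio overlapped between groups, and of single genes tested 30.3% did not overlap in either direction. The ratios restate fold changes known when the members were chosen, so nothing is read from the lack of overlap. A ratio within a library does not depend on how the libraries are scaled. A further pair of ratios was added after the values were seen. ITGA3 relative to ITGB1, the gene of its beta1 partner, was 0.83, 1.00 and 0.97 with vector and 0.52, 0.51 and 0.55 with SETD8. CD151 relative to ITGA3 was 0.92 ± 0.27 in vector and 2.22 ± 0.038 in SETD8 libraries. Vector replicate 1 was nearest to the SETD8 libraries in each of these ratios.

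**Figure D2:**
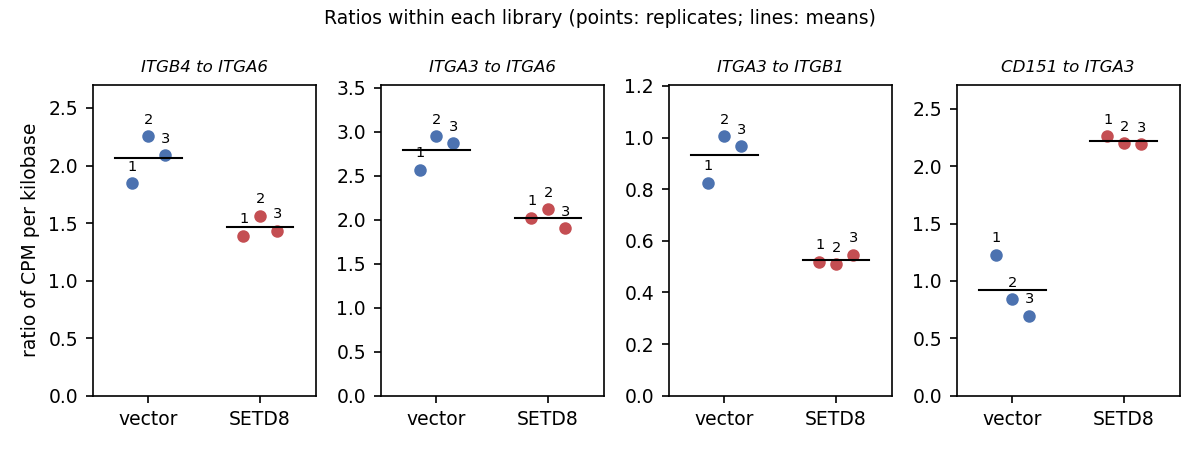
Ratio of CPM per kilobase of merged exons (vertical axes, from 0) between pairs of genes within each vector library (blue) and SETD8 library (red), with replicate numbers and a line at the group mean. Mean ITGB4 to ITGA6 was 2.06 in vector and 1.46 in SETD8 libraries, and CD151 to ITGA3 was 0.92 and 2.22.

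Across the 6 libraries, ITGA3 and ITGB4 followed each other most closely among the 15 pairs of members. After each gene's log2 CPM was centred on its mean over the libraries, the root mean square difference between ITGA3 and ITGB4 was 0.05 log2 units. ITGA6 and PLEC were the next closest pair at 0.086, and the CD151 and ITGB4 pair was the farthest apart at 0.71. Among 9095 other genes with a symbol and at least 10 CPM on average, the gene nearest to ITGA3 was ITGB4, and the gene nearest to ITGB4 was ITGA3. Next after these came BAIAP3 for ITGA3 (difference 0.087) and NOTUM, a secreted Wnt antagonist gene, for ITGB4 (0.084). The nearest genes to ITGA6 were TLN2, which encodes the integrin activator talin-2 (0.027), and GALNT10, a glycosyltransferase gene (0.032). Those nearest to PLEC were CLEC16A (0.033) and CDK10 (0.036), and those nearest to DST were SYNE2, the gene of a giant nuclear envelope cytolinker (0.098), and BDP1 (0.13). CD151 lay nearest to the myosin light chain gene MYL12B (0.017) and the respiratory complex gene NDUFA10 (0.018). These distances describe the same 6 libraries and carry no test. They include the difference between SETD8 and vector, by which the members were chosen. Genes with similar fold changes therefore lie near each other, and nothing further is read from which genes were nearest.

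The ligands of these receptors were lower as well. Of 12 laminin chain genes, 10 were tested, 8 fell and 0 rose (edgeR, adjusted p under 0.05), with a median log2 fold change of -0.60. LAMA3, which encodes the alpha chain of laminin-332, a ligand of alpha6beta4 and alpha3beta1 in epithelia, had 29.4, 35.3 and 42.0 CPM with vector and 18.9, 25.9 and 20.5 CPM with SETD8 (-0.71 ± 0.15 SE on the log2 scale, edgeR adjusted p = 0.0173). LAMB3 fell from 296 ± 56.5 to 213 ± 15.4 CPM (-0.47 ± 0.12 SE on the log2 scale, edgeR adjusted p = 0.0361). LAMA5, the alpha chain of laminin-511, fell by a log2 fold change of -0.83 (edgeR adjusted p = 0.0160), LAMC3 by -0.89 (edgeR adjusted p = 0.00549) and LAMA2 by -0.55 (edgeR adjusted p = 0.0160). LAMA4 (-1.11, edgeR adjusted p = 0.0578) and LAMB2 (-0.49, edgeR adjusted p = 0.0915) did not pass. LAMB3 and LAMA5 lost their calls with GC correction (edgeR adjusted p = 0.0524 and 0.0543), and LAMB3 also with any library other than vector replicate 1 left out (edgeR adjusted p = 0.113 to 0.194). Leaving out vector replicate 1 gave 10 laminin chains called lower, and leaving out vector replicate 2 gave 1. With SETD8 replicate 1, 2 or 3 left out the number was 0, 4 or 1, in that order.

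Among 9 tested genes of other laminin receptors, 4 fell and 0 rose, with a median log2 fold change of -0.39. BCAM, the Lutheran glycoprotein that binds laminin alpha5, fell from 54.5 ± 8.69 to 34.8 ± 4.78 CPM (-0.65 ± 0.13 SE on the log2 scale, edgeR adjusted p = 0.0159). ITGA7, a laminin receptor chain best known from muscle, fell by a log2 fold change of -0.72 (edgeR adjusted p = 0.0216), the collagen and laminin receptor chain ITGA2 by -0.56 (edgeR adjusted p = 0.0448) and the syndecan gene SDC4 by -0.39 (edgeR adjusted p = 0.0247). ITGB1, the shared beta1 chain, had 535, 594 and 660 CPM with vector and 524, 523 and 508 CPM with SETD8. The groups did not overlap, but the log2 fold change of -0.20 (SE 0.09) did not pass the test (edgeR adjusted p = 0.192). With vector replicate 1 left out, ITGB1 was called lower (-0.28 on the log2 scale, edgeR adjusted p = 0.0337). The ITGA2 call was lost with library totals (edgeR adjusted p = 0.0684) and with any library other than vector replicate 1 left out (0.0737 to 0.149). The laminin receptors called lower numbered 5, 0 and 3 when vector replicate 1, 2 or 3 was omitted, and 0, 1 and 0 when SETD8 replicate 1, 2 or 3 was. Of 15 tested integrin subunits other than the members, 3 fell and 0 rose. The third beside ITGA2 and ITGA7 was ITGAX, a leukocyte integrin chain at 2.59 ± 1.05 CPM with vector and 0.86 ± 0.38 CPM with SETD8 (edgeR adjusted p = 0.0335). For these subunits, omitting vector replicate 1, 2 or 3 gave 6, 0 and 2 called lower, and omitting any SETD8 replicate gave 0.

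The hemidesmosome partners did not move together. COL17A1, the transmembrane collagen of the classical hemidesmosome, was scarce, with 11.7, 12.4 and 13.9 CPM with vector and 7.04, 6.06 and 8.90 CPM with SETD8. The groups did not overlap and the gene fell (-0.79 ± 0.17 SE on the log2 scale, edgeR adjusted p = 0.0169). KLHL24, a ubiquitin ligase adaptor that acts on keratin 14, rose from 4.72 ± 0.55 to 8.99 ± 1.94 CPM (0.93 ± 0.20 SE on the log2 scale, edgeR adjusted p = 0.0166). The keratin genes KRT8 and KRT18, which supply the filaments of simple epithelium, had log2 fold changes of -0.09 and -0.23 (edgeR adjusted p = 0.681 and 0.193). Of the 6 tested partners 1 fell and 1 rose, with a median of -0.12, and KRT14 did not pass the filter. COL17A1 missed the threshold with vector replicate 2 left out (edgeR adjusted p = 0.0872) or with SETD8 replicate 1 or 2 left out (0.0953 and 0.0823). KLHL24 did so with vector replicate 2 left out (edgeR adjusted p = 0.105) or with any SETD8 replicate left out (0.0581, 0.0858 and 0.0554).

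Of 5 other plakin genes, 2 fell and 0 rose, with a median log2 fold change of -0.29. MACF1, the microtubule and actin crosslinker most like dystonin, fell from 279 ± 53.8 to 184 ± 11.2 CPM (-0.60 ± 0.12 SE on the log2 scale, edgeR adjusted p = 0.0154), and EPPK1 fell by -0.56 (edgeR adjusted p = 0.0164). The MACF1 call was lost with length correction, at -0.25 (edgeR adjusted p = 0.0740). Of these plakins, 3, 0 and 2 were called lower with vector replicate 1, 2 or 3 omitted, and 0 with any SETD8 replicate omitted. The desmosomal plakin DSP had a log2 fold change of -0.29 (edgeR adjusted p = 0.0946). Of 6 tested tetraspanins other than CD151, 0 fell and 0 rose by edgeR, DESeq2 or limma-voom, with a median of 0.12. An unadjusted edgeR p under 0.05 was seen for 2, CD63 at 0.28 and CD82 at -0.29 on the log2 scale. CD9 (0.16) and CD81 (0.19) were higher in every SETD8 library than in any vector library, and CD82 was lower. Such separation was seen in 30.3% of genes tested. These genes were named after their values were seen. With no low-count filter, or with vector replicate 1 omitted, 1 of these tetraspanins was called higher.

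Of 11 cytoplasmic integrin activators, 2 fell and 0 rose, with a median log2 fold change of -0.20. FERMT1, the epithelial kindlin, had 136, 160 and 174 CPM with vector and 85.8, 90.7 and 105 CPM with SETD8 (-0.74 ± 0.11 SE on the log2 scale, edgeR adjusted p = 0.00492). Among the libraries left out in turn, the FERMT1 call was lost only without SETD8 replicate 1 (edgeR adjusted p = 0.0508). TLN2 fell by -0.58 (edgeR adjusted p = 0.0188), a call lost with length correction (edgeR adjusted p = 0.0507), while TLN1, the more abundant talin gene, had a log2 fold change of -0.06 (edgeR adjusted p = 0.672). Of these regulators, 5, 1 and 2 were called lower with vector replicate 1, 2 or 3 omitted, and 0, 1 and 1 with SETD8 replicate 1, 2 or 3 omitted. Of 14 genes of beta4 signalling, the receptor kinases EGFR (-0.52, edgeR adjusted p = 0.0266) and MST1R (-0.44, edgeR adjusted p = 0.0430) fell, and the insulin receptor substrate IRS2 rose by 0.48 (edgeR adjusted p = 0.0150). The median of this group was -0.14. Scaling by library totals ended the MST1R call (edgeR adjusted p = 0.0526). In this group 5, 0 and 4 genes were called lower with vector replicate 1, 2 or 3 omitted, and 0 with any SETD8 replicate omitted. With vector replicate 2 or SETD8 replicate 1 or 2 omitted, 0 genes of this group were called higher, so the IRS2 call was lost. Over all 82 tested genes of these lists, each counted once, 21 fell and 2 rose. The 25.6% called lower stand beside 4.75% of all genes tested. As the lists were drawn up with earlier results of these data known, nothing is read from that difference.

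**Figure D3:**
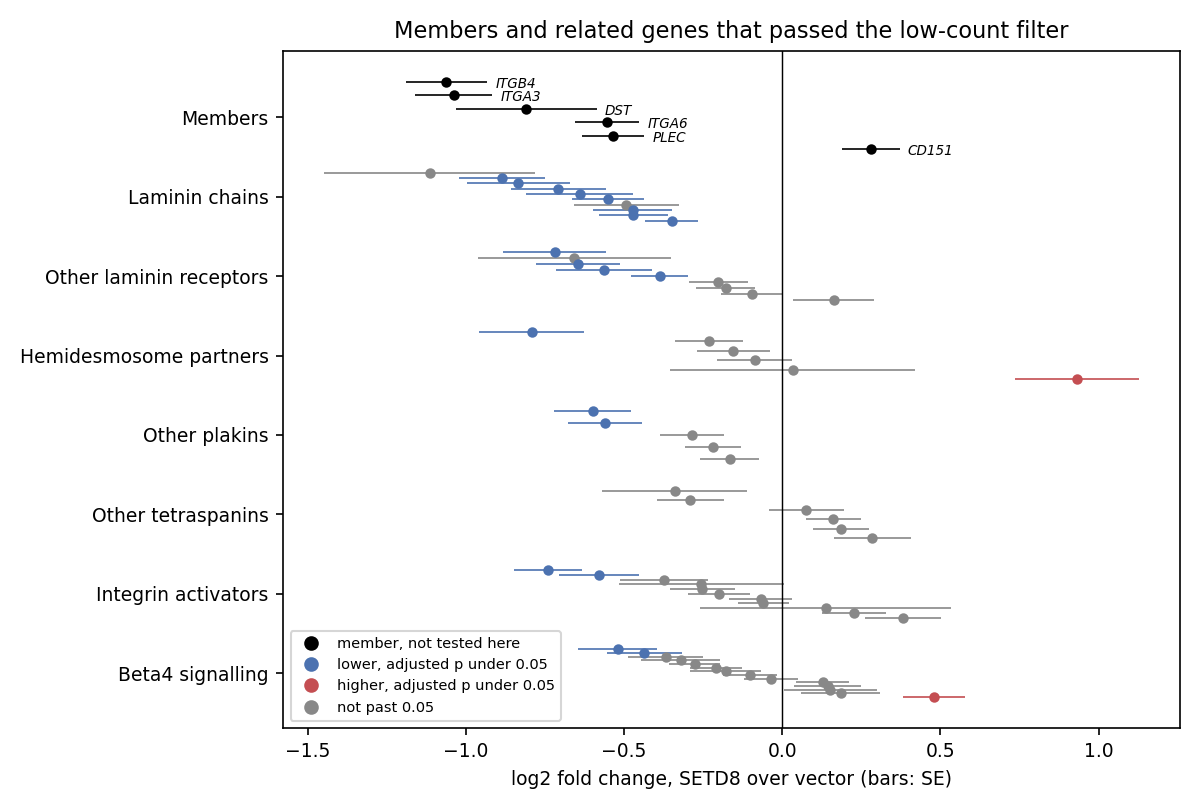
Log2 fold change of SETD8 over vector (horizontal axis, bars are SE) for the 6 members (black) and the tested genes of related lists (rows), with blue for genes called lower, red for genes called higher and grey for genes that did not pass. The laminin chains all lie left of 0, and the tetraspanins lie on either side of it.

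The size of the member values varied little with most settings. Leaving out 1 library at a time gave log2 fold changes of -1.19 to -0.93 for ITGA3, -1.22 to -0.97 for ITGB4, -0.65 to -0.47 for ITGA6, -0.59 to -0.46 for PLEC and 0.21 to 0.34 for CD151. The range for DST was -0.99 to -0.50. Without vector replicate 1, the values of all 6 members lay farther from 0. ITGA3 and ITGB4 were called with each library left out, ITGA6 in 3 of these 6 fits, PLEC in 2, and CD151 and DST in 1. In the same fits, 10 to 1738 of all genes were called lower and 1 to 1771 higher. As the members were chosen with this contrast known, nothing is read from their calls. The related genes called lower numbered 34 without vector replicate 1, 3 without vector replicate 2, 0 without SETD8 replicate 1, 7 without SETD8 replicate 2 and 4 without SETD8 replicate 3.

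**Figure D4:**
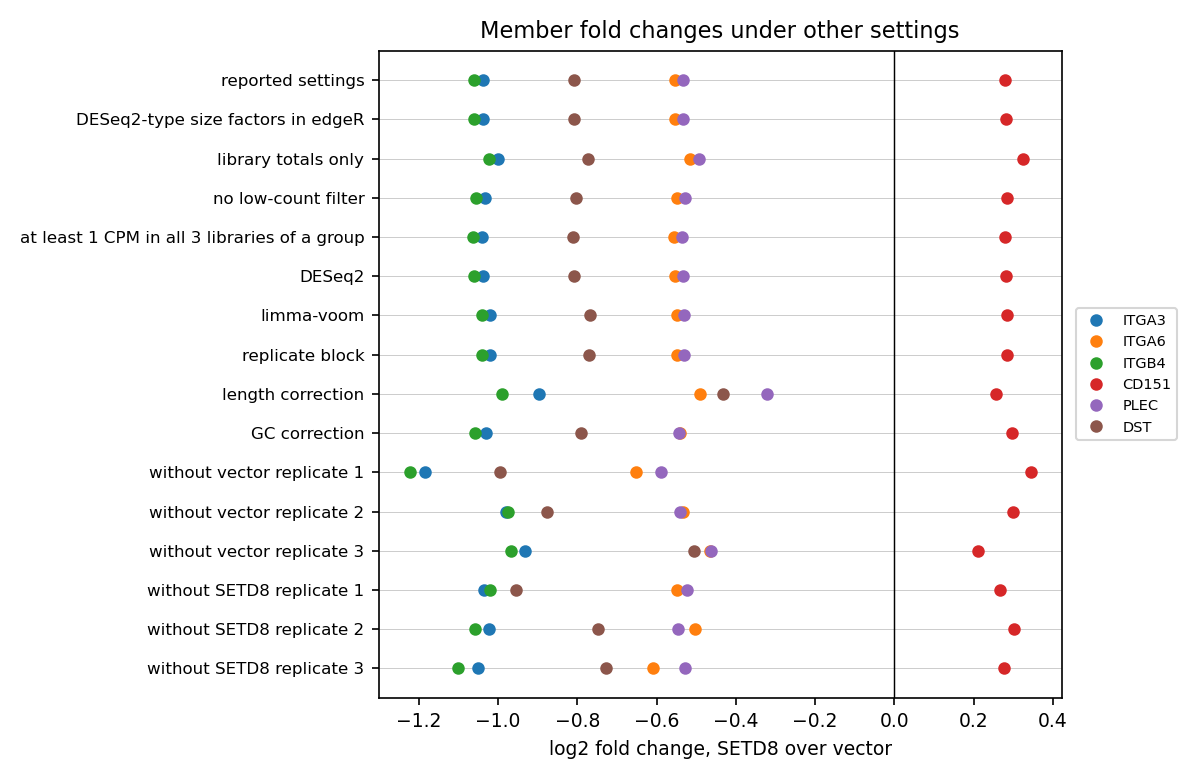
Log2 fold change of SETD8 over vector (horizontal axis) of each member (colours) under the reported settings and each alternative (rows). ITGA3 and ITGB4 stay between -1.22 and -0.90 throughout, and PLEC (-0.32) and DST (-0.43) lie nearest to 0 with length correction.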

How the data were processed

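Poly(A)-selected RNA of 6 HCT116 libraries was sequenced from a strand-marking kit, per the labels' protocols. The deposited values are whole-number read counts per Ensembl gene ID, not normalised. The aligners HISAT2 and STAR, the counters featureCounts and HTSeq, and the build GRCh38 (hg38) stand in the submitters' processing notes without roles. Annotation and strand use during counting are not stated. Columns named NC with a number were taken as the vector replicates, since vector is the only group besides SETD8, and 0 columns belonged to other samples. All 58735 IDs matched GENCODE 29 (GRCh38), which gave positions and exon lengths, and GC content came from each gene's longest transcript.

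Genes were filtered with filterByExpr (14370 kept), scaled by TMM and compared, without covariates, by the two-sided quasi-likelihood test of edgeR with robust estimation (R 4.3.3, edgeR 4.0.16, limma 3.58.1). P-values were adjusted after Benjamini and Hochberg across every gene tested, and 0.05 was the threshold. SE is the log2 fold change divided by the square root of F. The members and lists were chosen with earlier results of these data known. Named genes were the 6 members, ITGB1, COL17A1, LAMA3, LAMB3, KMT5A, YAP1, up to 4 called genes of each list, genes that overlap a member, and the 2 nearest genes by centred log2 CPM (prior count 2). One further gene named by this rule is not reported here. Other named genes were chosen after their values were seen. No annotated pseudogene carries a member's name, but copies were not searched for by sequence. Alternatives were DESeq2-type size factors, library totals, no filter, a stricter filter, DESeq2 1.42.0, limma-voom, a replicate block, length and GC corrections (lowess, span 0.3) and leaving out each library. Figures were drawn with matplotlib 3.10.9.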

Additional observations from a re-analysis of the deposited data

How the results depend on the processing

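Every member kept its direction under each of the 15 alternatives. In all settings that used the 6 libraries, 4 members were called lower, or 5, where 505 to 1051 of all genes were. With 1 library left out, 2 to 5 members were called lower and 0 to 1 higher. The members were chosen with this contrast known, so nothing is read from their calls. CD151 was called higher with library totals, no low-count filter, DESeq2, GC correction and without vector replicate 1 (1 member higher in each, against 0). Length correction moved PLEC to -0.32 and DST to -0.43. The count of genes called lower was 1051 with no low-count filter and ranged from 10 to 1738 with 1 library left out. That of genes called higher was 792 with library totals, 949 with no low-count filter and 739 with DESeq2, and 1 to 1771 with 1 library left out. Related genes called lower ranged from 0 to 34 and those called higher from 0 to 4 when 1 library was left out, with 4 higher with no low-count filter. The cause was not tested. Among the 21 named genes outside the members that were called, leaving out vector replicate 2 ended 18 calls (edgeR adjusted p up to 0.192), vector replicate 3 ended 3 (up to 0.194), and SETD8 replicates 1, 2 and 3 ended 21, 15 and 16 (up to 0.141, 0.169 and 0.134). Leaving out vector replicate 1 ended 0. The ratio of ITGA3 to ITGA6 per longest transcript was 4.30 in vector and 3.10 in SETD8 libraries.

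Same-numbered libraries did not deviate together (r = 0.025, 0.0078 and -0.064 over genes for numbers 1, 2 and 3), so the numbers are not taken as pairs. With the replicate block, 645 genes were lower and 532 higher, and ITGA3 and ITGB4 had log2 fold changes of -1.02 and -1.04. Counts of 3 in a library mark the lowest level read here, and every member had at least 1672 counts in each library. The part of sequencing depth in the member values was not tested.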

Other observations

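Of 10 tested genes for convertases, splicing factors and transcription factors tied to integrin processing or epithelial adhesion, 1 fell and 0 rose (edgeR, adjusted p under 0.05), with a median log2 fold change of -0.21. PLAU, the urokinase gene, whose protease can cleave the alpha6 chain, had 94.8, 134 and 105 CPM with vector and 54.1, 61.6 and 66.8 CPM with SETD8. The groups did not overlap (-0.87 ± 0.13 SE on the log2 scale, edgeR adjusted p = 0.00492), and without SETD8 replicate 1 the call was lost (edgeR adjusted p = 0.0508). FURIN, a convertase that cuts the alpha3 and alpha6 precursors, had a log2 fold change of -0.34 (edgeR adjusted p = 0.0535). ESRP1 and ESRP2, which direct epithelial splicing, had log2 fold changes of -0.03 and 0.04 (edgeR adjusted p = 0.860 and 0.849), with 56.9, 59.6 and 58.3 CPM of ESRP1 in vector and 53.6, 58.2 and 59.3 CPM in SETD8 replicates 1, 2 and 3. TP63, a transcription factor of basal epithelia, and ZEB2 did not pass the filter. The levels of alpha6 splice forms cannot be read from counts per gene.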
